A study of Mus musculus with 8 samples.

Results

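The data described here concern 8 genes that mark the primitive streak and the mesoderm that first leaves it: Mixl1, Eomes, Gsc, Mesp1, Mesp2, Lhx1, Evx1 and Pdgfra. They were chosen by name, and all 8 were found among the 22558 genes of the deposited expression table. The samples were mouse embryonic stem cells (lines R1 and R1/E), kept on feeder cells and then grown as embryoid bodies, which are floating clusters in which stem cells differentiate. Cells in which doxycycline induced overexpression of Oct6 (gene Pou3f1, a POU-domain transcription factor) were compared with control cells at days 2, 4 and 6, with 1 RNA-seq library per arm and day. Oct6 binding was mapped at day 4 in cells overexpressing Oct6, with 1 ChIP-seq library and 1 input library. The study asked what Oct6 does during neural differentiation of these cells. Whether control cells also received doxycycline, and whether both arms came from the same line, is not in the labels, so an effect of the drug or of a line and one of Oct6 cannot be told apart. The labels also give no promoter or clone for the inducible gene, and the prefix fbs in the sample titles goes unexplained beside a growth protocol that describes serum-free medium.

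In the mouse embryo, Nodal, Wnt3 and Bmp4 signals induce the primitive streak, the furrow through which epiblast cells leave to form mesoderm and definitive endoderm. Eomes, a T-box transcription factor, and Mixl1, a paired-type homeobox factor, act early in those cells, and Eomes lies upstream of Mesp1, a bHLH factor that marks the first cardiac and cranial mesoderm. Gsc and Lhx1 are homeobox genes of the anterior streak and the organizer, Evx1 is a homeobox gene of the posterior streak, and Mesp2 sets segment borders in presomitic mesoderm. Pdgfra encodes a receptor tyrosine kinase carried by nascent and paraxial mesoderm. Several of the 8 are not specific to the streak: Eomes also acts in trophoblast and visceral endoderm, Lhx1 and Gsc in anterior visceral endoderm, and Pdgfra in primitive endoderm and mesenchyme.

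The induced gene went with the labels. Pou3f1 stood at 64.3, 10.1 and 4.76 FPKM in control cells at days 2, 4 and 6, and at 312, 222 and 86.8 FPKM in induced cells. FPKM is the number of sequenced fragments scaled to transcript length and library size, so it can be compared between genes. The pluripotency factor Pou5f1 was present in every library, from 890 FPKM in control cells at day 2 to 136 FPKM in control cells at day 6. Differences below are on the log2(FPKM + 1) scale, induced minus control, which understates the change of weakly expressed genes. With 1 library per arm and day there is no replicate error within a day and no test there. A gene was counted as higher or lower where 1 of the compared libraries had at least 1 FPKM and the difference was at least 1, which is 2-fold on this scale. Relative depth, estimated from the spacing of low FPKM values, was 0.688 to 1.49 times that of control cells at day 2, and 1 fragment in a transcript of 1500 bases was worth 0.0127 to 0.0278 FPKM. The day 4 libraries differed, at 1.49 for control cells, the deepest, and 0.763 for induced cells. Each such ratio was the commonest among low values and was shared by only 42 to 98 genes.

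At day 4 all 8 genes were lower in Oct6-induced embryoid bodies than in control ones. The differences ran from -0.45 for Gsc to -2.29 for Mesp1, with a median of -0.84, while the median over all 12678 genes with enough signal was 0.10. Mesp1, Lhx1 and Pdgfra passed the 2-fold mark, 3 of 8, against 2.11% of all genes that were lower by as much, and none was higher by as much (6.09% of all genes). A lower value of any size was seen in 38.2% of all genes. In these bulk samples, fewer cells of a type and less RNA per cell cannot be told apart. At day 2 only Eomes and Pdgfra reached 1 FPKM in either arm, and none passed 2-fold (background 9.72% higher and 1.83% lower). On that day 4 differences were positive and 4 negative, with a median of -0.01, where 36.2% of all genes were lower by any amount. Day 6 had 3 positive and 5 negative differences with a median of -0.18, where 40.7% of all genes were lower by any amount. Pdgfra alone passed 2-fold on that day, downwards (background 2.1% lower and 3.37% higher).

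**Figure D1:**
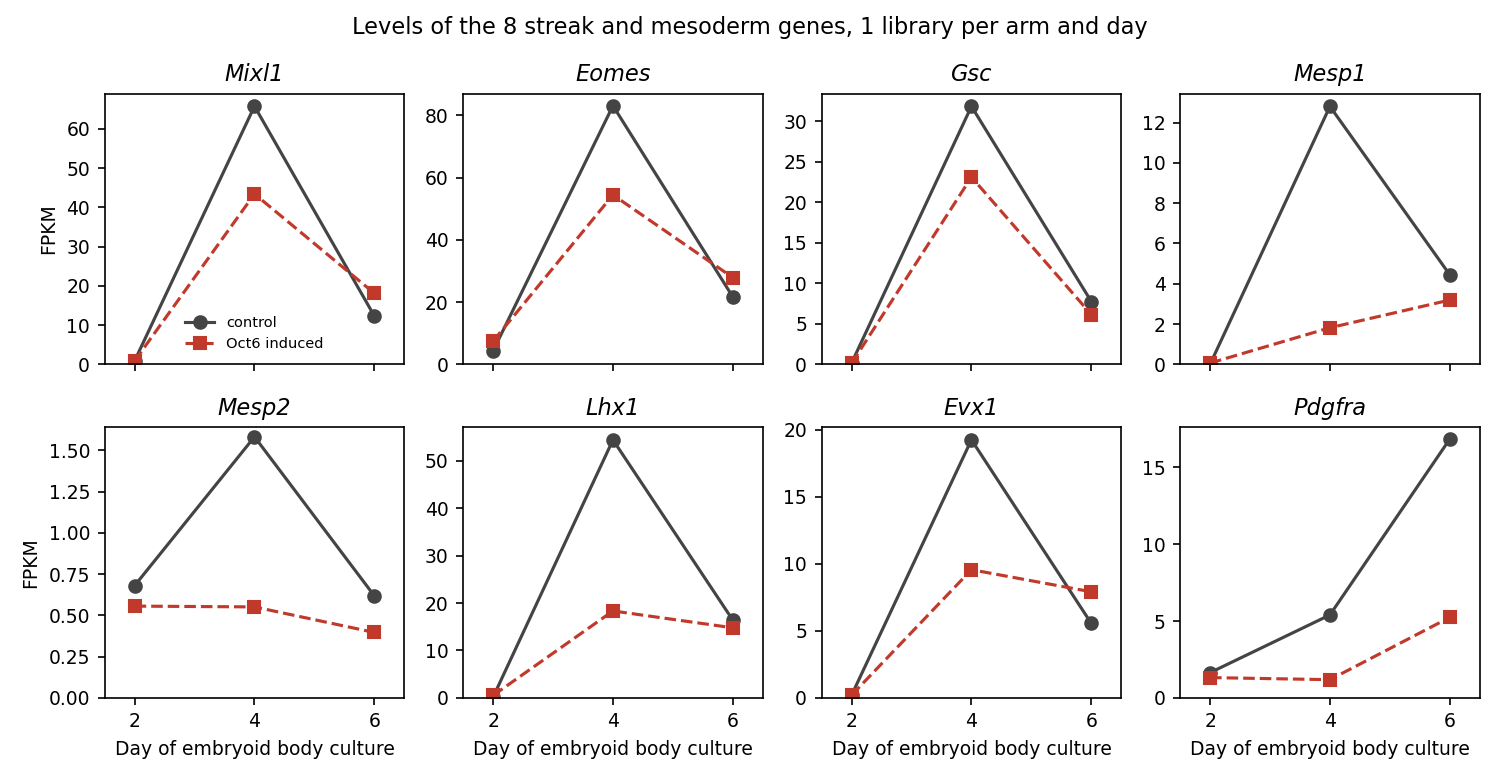
FPKM (vertical axes, each with its own range from 0) of the 8 genes at days 2, 4 and 6 of embryoid body culture in control cells (grey circles) and Oct6-induced cells (red squares), 1 library per point and no error bars. In control cells 7 of the 8 genes were highest at day 4, and Pdgfra was highest at day 6.

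The summed FPKM of the 8 genes was highest at day 4 in both arms. Over days 2, 4 and 6 it was 8.08, 274 and 85.6 in control cells and 11.1, 152 and 83.6 in induced cells. The sums of the arms were thus far apart at day 4 and close at day 6. The day 6 sums held differences of both signs, with 3 genes higher in induced cells and 5 lower. Mixl1, Eomes and Evx1 were the higher ones, while Pdgfra had 16.8 FPKM in control cells and 5.24 FPKM in induced cells. From day 2 to day 4, 7 of the 8 genes were at least 2-fold higher in control cells (background 9.63% of all genes) and 6 in induced cells (background 2.73%), and none was lower (background 4.65% and 2.36%). Pdgfra made the difference, with a step of 1.28 in control cells and -0.09 in induced cells, and Mesp2 passed 2-fold in neither arm. Of the 8, only Eomes and Pdgfra reached 1 FPKM at day 2, so the others could be counted only as higher. The shares of all genes include genes expressed on both days and are not a like measure for them. From day 4 to day 6, 6 genes were at least 2-fold lower in control cells (background 2.97%) but only Mixl1 and Gsc were in induced cells (background 2.1%). The median step was -1.65 in control cells and -0.27 in induced cells. Pdgfra moved the other way, higher by 1.48 in control cells (background 6.15%) and by 1.52 in induced cells (background 2.98%).

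Steps in time could be tested over both arms with limma, a linear model fitted across 13661 genes, with Benjamini-Hochberg adjusted p-values. The arms were the only repeats and left 2 residual degrees of freedom. From day 2 to day 4, 10 genes in all passed an adjusted p of 0.05 (0.0732% of those tested), and Gsc and Mixl1 were among them. Genes entered the fit with 1 FPKM in any library, and of the 8 only Eomes and Pdgfra reached that at day 2. The others entered through later days alone, so the direction of their step was largely set by the filter. Gsc rose by 4.63 (SE 0.19, limma adjusted p = 0.00673) and Mixl1 by 4.86 (SE 0.28, limma adjusted p = 0.0213), each in both arms. With no filter on low values neither passed (limma adjusted p = 0.175 and 0.198). Eomes (3.34, SE 0.31), Lhx1 (4.63, SE 0.46) and Evx1 (3.61, SE 0.36) were higher in both arms but missed the threshold, each with a limma adjusted p of 0.0905. Mesp1 had a step of 2.60 (SE 0.59, limma adjusted p = 0.106). Mesp2 and Pdgfra had steps of 0.31 and 0.60 with limma adjusted p-values of 0.505 and 0.385. Before adjustment 6 of the 8 had a p under 0.05, all upwards, where 15.4% of all genes were higher and 9.22% lower. That count is limited by the filter in the same way, except for Eomes. From day 4 to day 6 no gene of the whole table passed with limma after adjustment, while 1207 were higher and 802 lower at an unadjusted p under 0.05 (8.84% and 5.87%), among them Mixl1, Eomes, Gsc and Evx1 lower and Pdgfra higher.

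Over the 3 days together, none of the 8 genes differed between arms after adjustment. In the limma fit with day as a block, 3 genes of the table passed (0.022%), and none was of these 8. Pdgfra came nearest, at -1.09 (SE 0.32, unadjusted p = 0.0177, limma adjusted p = 0.175), and it was lower in induced cells on 3 of 3 days. It was the only gene of the 8 with an unadjusted p under 0.05, against 4.72% of all genes in that direction and 16.3% in the other. Mesp1 followed with -0.86 (SE 0.48, limma adjusted p = 0.352). The values of Mixl1 (-0.03, SE 0.23) and Eomes (0.14, SE 0.26) were smaller than their errors, since their differences changed sign between days. A steady drift of the difference with day passed for no gene in limma after adjustment (3.44% upward and 9.68% downward at an unadjusted p under 0.05). For Pdgfra that drift was -0.33 per day (unadjusted p = 0.0457, limma adjusted p = 0.373), with 1 residual degree of freedom, and its unadjusted p was above 0.05 under each alternative pseudocount, scaling and filter.

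**Figure D2:**
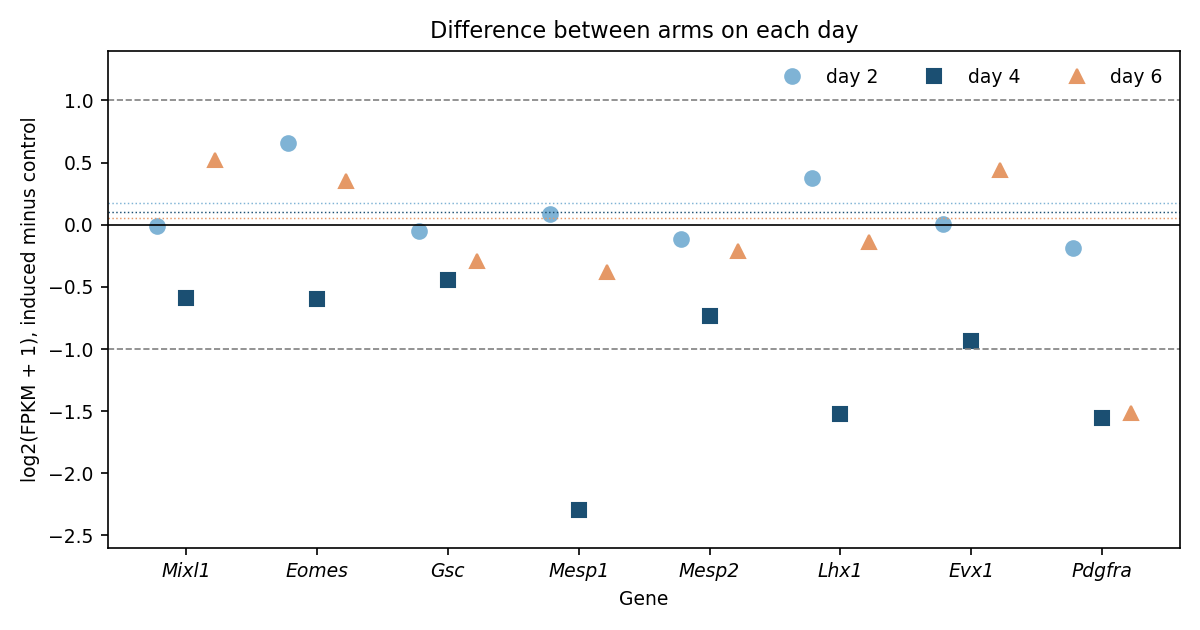
Difference in log2(FPKM + 1), induced minus control (vertical axis), of each of the 8 genes at day 2 (circles), day 4 (squares) and day 6 (triangles). Solid line, 0; dashed lines, 2-fold; dotted lines, the median of all genes on each day. All 8 squares lie below 0, between -0.45 and -2.29, and only Pdgfra is nearly as low at day 6 (-1.52) as at day 4 (-1.55).

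Eomes (ENSMUSG00000032446.8, chromosome 9, 118387330-118395250, plus strand, build NCBIM37, the assembly behind mm9) had the highest level of the 8 in all 6 libraries. Control cells gave 4.36, 83.1 and 21.7 FPKM at days 2, 4 and 6, and induced cells gave 7.45, 54.5 and 27.9 FPKM. Induced cells were thus above control at days 2 and 6 (0.66 and 0.35) and below it at day 4 (-0.60, 65.5% of control), with no difference past 2-fold. Eomes was also the only gene of the 8 with an Oct6 peak centred within 10 kb of its start site. There were 2 such peaks, at 429 bases and 7.30 kb downstream of the start, with deposited scores of 13.9 and 11.4. The median score of the list is 11.4 and the highest is 145.6. The nearer peak (chr9:118387693-118387825) lies across the border of the 5′ untranslated region, with 85 bases in it and 48 bases of coding sequence. The other lies in the 3′ untranslated region. The coding part of the nearer peak is printed to show where Oct6 signal fell relative to the start codon, which is in capitals; coordinates are chr9:118387778-118387825, plus strand, from the reference genome.
Eomes coding part of the peak: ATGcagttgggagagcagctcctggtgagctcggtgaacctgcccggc

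A further Oct6 peak lay upstream of Eomes within 100 kb. The POU-type motifs ATGCAAAT and ATGCATAT were searched on both strands of all 7965 placed peaks, each of 133 bases. ATGCAAAT was found in 4.19% of them and ATGCATAT in 7.18%, with 10.9% holding either.

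Mixl1 (ENSMUSG00000026497.7, chromosome 1, 182623174-182627165, minus strand) is a target of Nodal-type signals. Its control values at days 2, 4 and 6 were 0.888, 65.7 and 12.3 FPKM, and its induced values 0.870, 43.4 and 18.1 FPKM. The arms matched at day 2, induced cells had 66.0% of the control level at day 4 (-0.59), and they had 147% of it at day 6 (0.52). None of these passed 2-fold. The nearest Oct6 peaks were 4, all upstream and intergenic, at 67.0, 80.7, 81.2 and 97.2 kb, with scores of 10.1 to 12.7. Other genes lay closer to each of them: Acbd3 for the peak at 67.0 kb and the histone gene H3f3a for the other 3. The peak with the highest score of the 4 is shown (chr1:182707825-182707957, plus strand, 61.7% GC) as an example of their GC-rich sequence, with no part in capitals since neither motif was found.
Mixl1 upstream peak: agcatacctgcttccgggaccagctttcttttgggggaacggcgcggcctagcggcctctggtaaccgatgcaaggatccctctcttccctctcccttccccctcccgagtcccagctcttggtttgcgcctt

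Gsc (ENSMUSG00000021095.3, chromosome 12, 105709419-105711537, minus strand), a homeobox repressor expressed in the organizer, had the smallest day 4 difference of the 8. Control cells gave 0.155, 31.9 and 7.75 FPKM and induced cells 0.114, 23.1 and 6.15 FPKM. The induced value was the lower one on all 3 days, but the largest gap was -0.45, at day 4 (72.6% of control), and it stayed under 2-fold. The limma estimate over the days was -0.26 (SE 0.15, adjusted p = 0.364). No Oct6 peak lay within 100 kb of its start site; the nearest was 552 kb away.

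Lhx1 (ENSMUSG00000018698.7, chromosome 11, 84331479-84338923, minus strand) encodes a LIM-homeodomain factor that works with Otx2 and Foxa2 in anterior mesendoderm. The control series read 0.161, 54.4 and 16.4 FPKM and the induced series 0.504, 18.3 and 14.8 FPKM. At day 4 the control level was 2.97 times the induced one (-1.52), past 2-fold, and at day 6 the induced level was 90.1% of control (-0.14). The induced arm thus had a lower peak, but it kept 80.6% of its day 4 level at day 6 where control cells kept 30.1%. Within the 4 most abundant genes of the control arm at day 4 (Eomes, Mixl1, Lhx1 and Gsc), Lhx1 alone passed 2-fold. A noncoding gene on the opposite strand, 1500016L03Rik (now Lhx1os), starts 239 bases from Lhx1 without overlap. At day 4 it had 5.66 FPKM with control cells and 2.69 FPKM with induced ones, a difference of -0.85 in the same direction as Lhx1 and under 2-fold. The only Oct6 peak within 100 kb of Lhx1 was 95.7 kb downstream, in an intron of Aatf, with a score of 10.1 (chr11:84243193-84243325, plus strand); it held neither motif and is shown for its position inside another gene.
Lhx1 downstream peak: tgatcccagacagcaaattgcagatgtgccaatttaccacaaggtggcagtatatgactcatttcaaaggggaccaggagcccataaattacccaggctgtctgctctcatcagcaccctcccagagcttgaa

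Evx1 (ENSMUSG00000005503.8, chromosome 6, 52263492-52268372, plus strand) was low at day 2 in both arms, at 0.200 FPKM (control) and 0.201 FPKM (induced). By day 4 control cells had 19.2 FPKM and induced cells 9.55 FPKM, 49.7% of control. That difference of -0.94 fell just short of the 2-fold mark on the log2(FPKM + 1) scale and passed it with a pseudocount of 0.1 (-1.002) and with the libraries scaled to a common median ratio (-1.07) or by quantiles (-1.06). At day 6 the order was reversed, with 5.55 FPKM for control and 7.90 FPKM for induced cells (0.44). Evx1 is overlapped over 1335 bases by an antisense noncoding gene, 5730457N03Rik (now Evx1os), whose day 4 levels were 8.79 FPKM (control) and 3.75 FPKM (induced), lower past 2-fold. The sources used here do not state a strand setting, so reads of the pair cannot be told apart. A lone Oct6 peak lay within 100 kb, 53.2 kb downstream in intergenic sequence with a score of 12.7 (chr6:52316639-52316771, plus strand), and Evx1 was the nearest coding gene to it.
Evx1 downstream peak: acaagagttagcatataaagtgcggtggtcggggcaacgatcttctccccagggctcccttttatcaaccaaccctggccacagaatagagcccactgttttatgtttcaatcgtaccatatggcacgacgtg
The Evx1 promoter was the only one of the 7 matched in RefSeq (build GRCm38.p6; Mixl1 was not matched) that held a POU-type motif; exon bases were left out, which kept 159 bases for Gsc, 52 for Mesp1 and 250 for the others. It is shown for the 250 bases before the RefSeq start, from a window that begins at base 52313248 of chromosome 6 in that build. The capitals mark ATGCAAAT read on the minus strand, from base 125. Over 32851 RefSeq promoter windows of the same length, 1.60% held ATGCAAAT and 0.718% held ATGCATAT. No peak lay in this window, and the match is a description of its letters only.
Evx1 promoter: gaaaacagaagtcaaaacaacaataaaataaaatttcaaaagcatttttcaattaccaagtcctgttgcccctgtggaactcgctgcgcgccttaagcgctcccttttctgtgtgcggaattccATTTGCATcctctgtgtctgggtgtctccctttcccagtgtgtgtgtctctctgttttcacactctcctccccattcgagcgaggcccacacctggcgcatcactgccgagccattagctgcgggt

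Mesp1 (ENSMUSG00000030544.5, chromosome 7, 86937127-86938674, minus strand) had the largest difference of the 8. It was listed at 0 in control cells at day 2 and at 0.0604 FPKM in induced cells, a level of a few fragments. At day 4 control cells had 12.8 FPKM and induced cells 1.81 FPKM, 14.2% of control or 7.06-fold lower (-2.29). At day 6 the values were 4.44 and 3.19 FPKM (-0.38). From day 4 to day 6 Mesp1 thus went to 34.7% in control cells but to 176% in induced cells, the only gene of the 8 besides Pdgfra that was higher at day 6 than at day 4 in that arm. Its neighbour Mesp2 (ENSMUSG00000030543.8, 86955613-86958317, plus strand) starts 16.9 kb away in the opposite direction. Mesp2 was low throughout, at 0.680, 1.58 and 0.618 FPKM in control and 0.556, 0.551 and 0.397 FPKM in induced cells. Its day 4 difference was -0.74 with a pseudocount of 1 and -1.37 with 0.1, so whether it passed 2-fold rested on that setting. No Oct6 peak lay within 100 kb of either gene; the nearest were at 327 and 344 kb.

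Pdgfra (ENSMUSG00000029231.9, chromosome 5, 75548316-75594229, plus strand) differed in its course. Control values were 1.64, 5.40 and 16.8 FPKM at days 2, 4 and 6, and induced values 1.32, 1.18 and 5.24 FPKM. Control cells had 4.57 times the induced level at day 4 (-1.55) and 3.22 times it at day 6 (-1.52), both past 2-fold. The induced level at day 6 was close to the control level at day 4. The nearest Oct6 peak was 191 kb upstream with a score of 16.5, and none was within 100 kb.

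**Figure D3:**
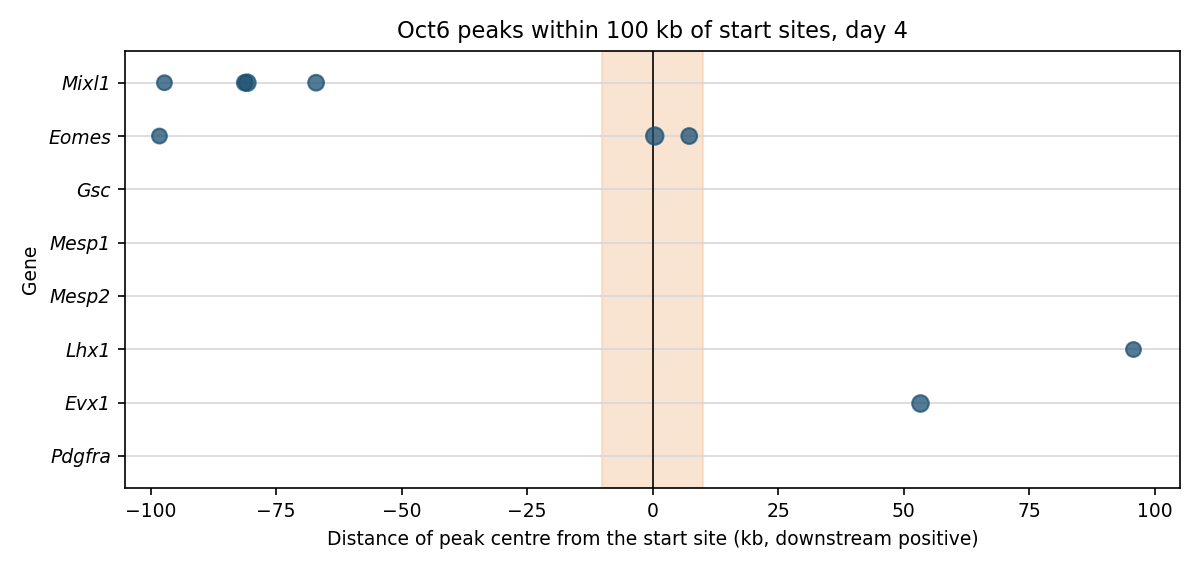
Distance in kb (horizontal axis, downstream positive) of each Oct6 peak centre within 100 kb from the start site of the 8 genes (1 row each); shading marks 10 kb on either side and larger dots have higher deposited scores. Only Eomes has peaks in the shaded window, 2 of them, and Gsc, Mesp1, Mesp2 and Pdgfra have no dot.

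In all, 1 of the 8 genes had an Oct6 peak within 10 kb of its start and 4 had a peak within 100 kb. Of 20204 coding genes, 13.1% had a peak within 10 kb and 48.9% within 100 kb, so the count of the 8 was near the background at both distances. Within 50 kb, 1 of the 8 had a peak, against 32.1% of coding genes. Of 12085 coding genes with at least 1 FPKM at day 4, 18.4%, 39.6% and 56.9% had a peak within 10, 50 and 100 kb. The counts of the 8 were not tested against these shares. The peak list comes from 1 ChIP library against 1 input, and peak scores are the authors' own.

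The 8 genes did not share a single course. Likeness was measured as the Euclidean distance between mean-centred log2(FPKM + 1) values over the 6 libraries, among 13660 other genes. Within the 8, the closest pairs were Mixl1 with Gsc (0.656) and Eomes with Evx1 (0.918), and the farthest was Mesp2 with Lhx1 (4.74). Fgf8, a growth factor of the streak, was the nearest gene of the whole table to Mixl1 (0.625), Gsc (0.614) and Lhx1 (0.887). The nearest to Eomes and to Evx1 was Sp5 (0.878 and 0.746), a target of Wnt signals, with 5730457N03Rik also among the 3 nearest to Eomes and Grrp1 to Evx1. Aplnr, the apelin receptor of nascent mesoderm, was among the 3 nearest to Lhx1 (1.09). Mir302c also lay near Mixl1, Gsc and Lhx1 and Mir302a near Mesp1, but these short RNAs were listed at 0 at day 2 in both arms and their FPKM is uncertain. Mesp1 lay nearest to Ndrg1 (1.001) and Ddit4 (1.03), both known as stress-responsive genes. At day 4 Ndrg1 had 14.4 FPKM for control and 3.72 FPKM for induced cells. Pdgfra lay nearest to Col4a1 (0.388), a basement membrane collagen, Loxl2 (0.483) and Apom (0.499). Col4a1, control before induced, had 23.4 and 6.74 FPKM at day 4 and 70.1 and 29.2 FPKM at day 6. Mesp2 lay nearest to Wasf1, Trfr2 and H2-Q7 (0.178 to 0.202), a likeness that its small range makes easy to reach.

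Other genes of the streak and nascent mesoderm, 25 in the list used, lay mostly on the same side as the 8 at day 4. Of the 22 with enough signal, 7 were at least 2-fold lower in induced cells and none higher, with a median of -0.67. The shares of all genes at day 4, for this list and those below, were 2.11% lower and 6.09% higher. The 7 were Hand1, Kdr, Aplnr, Snai1, Fgf3, Fgf8 and Foxh1. In the pairs of values that follow, control comes before induced. Fgf8 had 102 and 46.0 FPKM (-1.13). Kdr, a VEGF receptor of blood and vessel progenitors, had 6.97 and 0.834 FPKM (-2.12). Hand1, a factor of extraembryonic and cardiac mesoderm, had 7.65 and 0.608 FPKM (-2.43). T, the T-box factor that marks the streak as a whole, had 196 and 135 FPKM (-0.54). The difference of T was within the range of Eomes, Mixl1 and Gsc, and those of Hand1 and Kdr were near that of Mesp1. At day 6, 3 genes of the list were lower (Foxc1, Foxc2 and Kdr) and Msgn1 and Dll1 were higher. The day 6 shares of all genes, for this list and those below, were 2.1% lower and 3.37% higher. Over the 3 days, limma passed none of the 25 after adjustment. At an unadjusted limma p under 0.05, 4 were lower (4.72% of all genes) and none higher (16.3%).

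Among 22 signals and effectors that act upstream of the streak, 2 were lower and 1 higher at day 4, and the median was -0.28. Cfc1, a Nodal co-receptor, was lowest, with 27.5 and 5.05 FPKM (-2.24). Gdf3, a Nodal-related ligand, was higher (1.67). Nodal itself had 38.4 and 28.5 FPKM (-0.42) at day 4 and 7.005 and 12.5 FPKM (0.75) at day 6. Wnt3 had 14.0 and 7.03 FPKM at day 4 and 4.46 and 7.89 FPKM at day 6, a change of sign like that of Mixl1, Eomes and Evx1. At day 2, 3 of 21 with enough signal were lower and 3 higher (1.83% and 9.72% of all genes). The lower ones were Lef1 (-1.90), Tdgf1 (-1.55) and Tcf7l1 (-1.12). Furin (1.53), Smad5 (1.51) and Acvr2a (1.19) were the higher ones. None of the 22 passed limma after adjustment over the 3 days, with 5 higher (16.3% of all genes) and 3 lower (4.72%) at an unadjusted p under 0.05.

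Genes of the anterior streak, node and definitive endoderm, the domain of Gsc and Lhx1, numbered 11 with enough signal at day 4. Of these, 3 were lower and none higher, with a median of -0.74: Otx2, Foxj1 and Hhex. Otx2, a partner of Lhx1, had 94.6 and 31.0 FPKM (-1.58), and it was lower already at day 2 (-2.47), when Lhx1 was under 1 FPKM in both arms. Foxa2, another partner, had 22.2 and 16.1 FPKM (-0.44), and Cer1, a secreted Nodal inhibitor, 57.9 and 53.1 FPKM (-0.12). Of the 7 LIM cofactors and partners of Lhx1 with enough signal, Otx2 was lower and Ssbp2 higher (1.32), and the central cofactor Ldb1 had 44.9 and 56.9 FPKM (0.34). In the limma fit over the days no gene of these lists passed after adjustment. At an unadjusted limma p under 0.05, 2 of the anterior list were lower (4.72% of all genes) and none higher (16.3%).

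Of 16 genes of early cardiac and cranial mesoderm, which form after Mesp1, 3 of 10 with enough signal were lower at day 4 and 5 of 15 at day 6, and none was higher on either day. The medians were -0.84 and -0.79. Hand1, Gata4 and Tbx20 made up the day 4 count, and Mef2c, Nkx2-5, Isl1, Tbx1 and Hand2 the day 6 count. Hand1 was also in the streak and trophoblast lists, and Gata4 in the list of visceral and primitive endoderm markers. Nkx2-5, an early heart factor, had 4.14 and 0.343 FPKM at day 6 (-1.93), when Mesp1 itself had 4.44 and 3.19 FPKM. Limma passed none of the list over the 3 days after adjustment. At an unadjusted limma p under 0.05, 5 were lower (4.72% of all genes) and none higher (16.3%).

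The presomitic genes that act with Mesp2 had medians of 0.02 at day 4 and 0.36 at day 6. At day 4, 2 of 11 were higher and none lower, and at day 6 3 of 12 were higher and none lower. Uncx (0.0411 and 2.36 FPKM, control before induced) and Epha4 (3.25 and 18.03 FPKM) made up the day 4 count; both are also known in neural tissue. Other genes of the list had negative day 4 differences under 2-fold, among them Dll3 (-0.92), Notch1 (-0.54), Msgn1 (-0.52) and Tbx6 (-0.49). Msgn1, a bHLH factor of presomitic mesoderm, had 0.118 and 2.69 FPKM at day 6 (1.72). Mesp2 was under 1 FPKM in both arms on that day. Limma passed none of these over the 3 days after adjustment, with 2 of 12 higher at an unadjusted p under 0.05, near the 16.3% of all genes, and none lower.

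The ligands and kin of Pdgfra moved in both directions. Pdgfc, a ligand of the receptor, had 0.739 and 11.6 FPKM at day 4 (2.86) and passed 2-fold upwards on each day, with differences of 1.28 at day 2 and 1.02 at day 6. Pdgfra had negative differences on the same days. Pdgfa, another ligand, had 9.27 and 11.3 FPKM (0.26) and Pdgfrb, the sister receptor, 1.25 and 1.74 FPKM (0.28) at day 4. Pdgfb was lower (2.81 and 0.720 FPKM, -1.15). In all, 1 of 10 was higher and 2 lower at day 4, and limma passed none over the 3 days after adjustment, with 1 of 10 higher (16.3% of all genes) and 2 lower (4.72%) at an unadjusted p under 0.05.

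**Figure D4:**
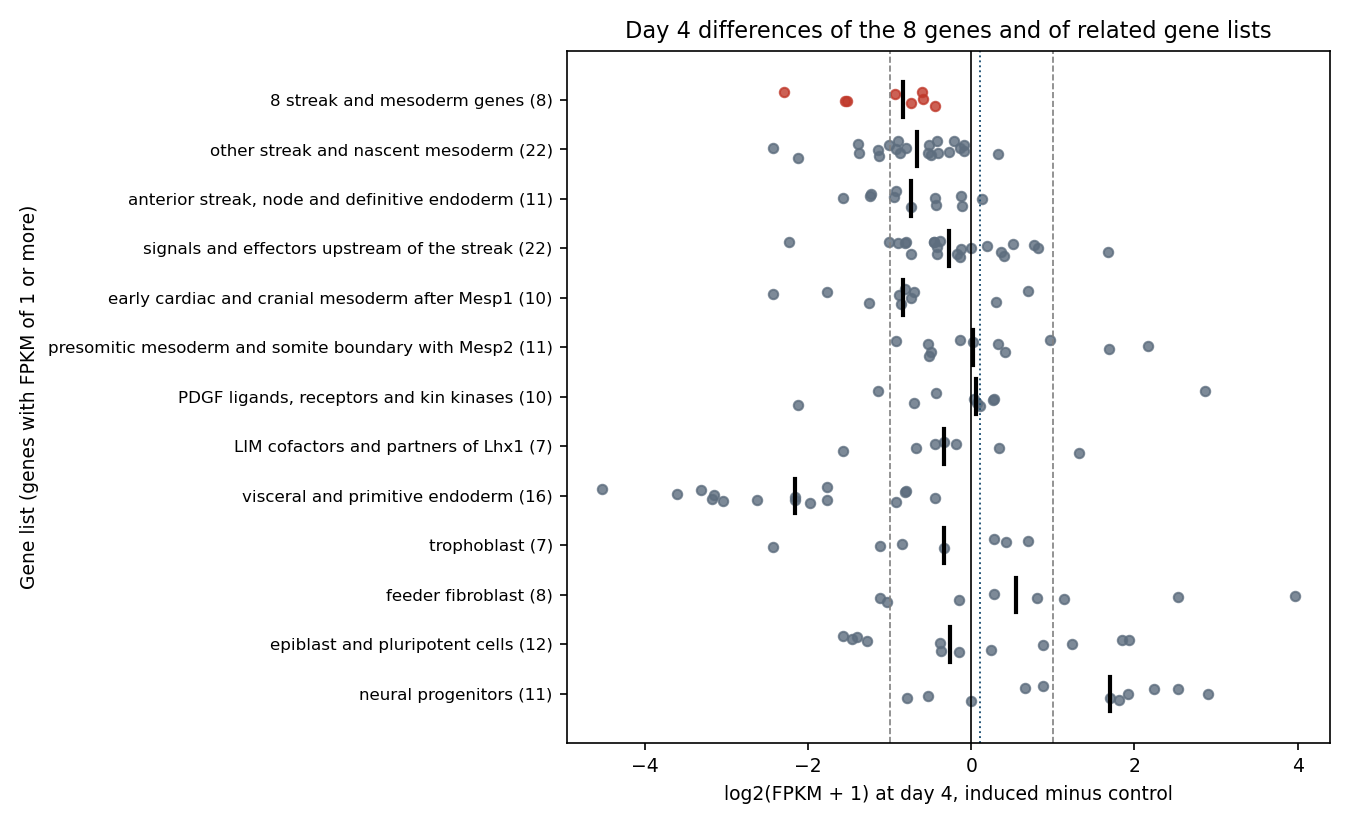
Day 4 difference in log2(FPKM + 1), induced minus control (horizontal axis), of the 8 genes (red) and of each related or marker list (grey), 1 dot per gene with FPKM of 1 or more; some genes are in several lists. Black bars are medians, dashed lines mark 2-fold and the dotted line is the median of all genes; the 8 genes have a median of -0.84, visceral endoderm markers -2.16 and neural progenitor markers 1.70.

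Markers of other cell types also differed between the arms at day 4, when 2.11% of all genes were at least 2-fold lower and 6.09% higher. Of 16 visceral and primitive endoderm markers, 12 were at least 2-fold lower in induced cells and none higher, with a median of -2.16. Their summed FPKM, control before induced, was 46.3 and 15.9 on day 2. Day 4 gave 227 and 45.2, and day 6 gave 299.5 and 70.4. Ttr, a transport protein of visceral endoderm, had 26.6 and 0.200 FPKM at day 4, and Apoa4 was listed at 0 in induced cells at days 2 and 4. Over the 3 days, limma passed none of the 16 visceral and primitive endoderm markers after adjustment. At an unadjusted limma p under 0.05, 11 of them were lower (4.72% of all genes) and none higher (16.3%). Eomes, Lhx1, Gsc and Pdgfra are expressed in that tissue too, and the part of these cells in their values was not tested. Of the trophoblast list, 2 of 7 were lower, with summed FPKM of 26.9 and 20.2; Elf5 and Tpbpa, which define that lineage, were listed at 0 in some libraries. Of the neural progenitor markers, 6 of 11 were higher and none lower at day 4, with summed FPKM of 98.1 and 147. Of 12 epiblast markers, 4 were lower and 3 higher. At day 2, 5 of the 12 were lower and none higher (1.83% and 9.72% of all genes), with summed FPKM of 2230 and 1100. At day 6, 2 were higher and none lower (3.37% and 2.1% of all genes). At an unadjusted limma p under 0.05 over the 3 days, 1 epiblast marker was higher and 5 lower. For neural progenitor markers those counts were 5 and 1, and for trophoblast markers 1 and 2.

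Feeder fibroblast markers are given because mesenchyme expresses Pdgfra. Their summed FPKM at days 2, 4 and 6 was 49.4, 57.4 and 404 (control) and 163, 137 and 256 (induced). At day 4 the fibroblast sum was higher in induced cells and Pdgfra was lower there, with 3 of 8 markers higher and 2 lower. At day 6, 7 of 12 were lower and none higher, among them Acta2 (126 and 25.2 FPKM) and Col3a1 (28.6 and 5.46 FPKM), in the same direction as Pdgfra. The part of such cells in the Pdgfra values was not tested on either day.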

How the data were processed

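The 8 genes and all gene lists were chosen with earlier results of these data known. Groups and days came from the sample labels. The tools named in the submitters' processing notes are HOMER, Cuffdiff, Cufflinks 1.3.0 and TopHat 1.4.1, and the build is mm9; strand and multi-mapping settings are not given in the sources used here. The authors deposited FPKM values as 1 table of genes by library, and a list of 7979 Oct6 peaks, each of 133 bases with a deposited score. Of these, 14 on unplaced contigs were left out. FPKM was taken as log2(FPKM + 1). An exact 0 can be a failed estimate, since 24 genes listed at 0 in some library reached 10 FPKM or more in another, so no plain ratio was taken against 0. Differences, steps and limma fits on the log2(FPKM + 1) scale did use such values. Among them is the counted rise of Mesp1 from day 2 to day 4 in control cells.

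Libraries were compared within a day at a threshold of 1 FPKM and a log2 difference of 1. Limma 3.58.1 in R 4.3.3 (trended eBayes, two-sided, arm and day as factors) was fitted to 13661 genes with 1 FPKM in any library, after being tested on simulated data. The spread it uses is that between days and between arms, as the labels name no repeat of a group. Peak distances run from the GENCODE gene start on NCBIM37 to the peak centre; promoter sequences are RefSeq's, peak sequences the reference genome's. The genes named were the 8, their 3 nearest profiles, up to 4 genes of each list that differed most on a day, and fixed partners; the remaining names complete counts and were chosen after their values were seen. What was read from the sequence of 1 peak is not reported here, and other peak sequences were printed only as examples. Alternatives were other pseudocounts (0.1 and 0.5), scalings, filters, days left out and peak windows. Python 3.11.15 with pandas 2.3.3 and matplotlib 3.10.9 did the rest.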

Additional observations from a re-analysis of the deposited data

How the results depend on the processing

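No call of a gene reversed under the alternatives run. Of 96 values of a gene's difference within a day under other pseudocounts and scalings, 93 moved by less than the SD of that gene over the 3 days and 3 moved further; all 8 stayed negative at day 4. Gsc at day 2 went from -0.05 to -0.25 and Mesp2 at day 4 from -0.74 to -1.37 with a pseudocount of 0.1, and Mesp2 at day 2 from -0.11 to -0.46 with quantile normalisation. The number of the 8 genes at least 2-fold lower at day 4 was 3, and 5 with a pseudocount of 0.1, which added Mesp2 and Evx1. It was 4, with Evx1 added, under a common median ratio and under quantile normalisation. The count over the whole table rose too. Genes lower by as much at day 4 numbered 268 in the main setting and 428 with a pseudocount of 0.1. They numbered 352 under a common median ratio and 393 under quantile normalisation. The sign of a difference changed only for Evx1 at day 2, from 0.00 to -0.04 with a common median ratio and -0.12 with quantile normalisation. Those scalings moved the median of all genes from 0.17 to -0.04 and -0.05 at day 2, and from 0.10 to -0.03 and -0.02 at day 4.

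Counts over the whole table in limma were less stable. Genes that differed between arms over the 3 days numbered 3, but 1 with a pseudocount of 0.1, 17 with quantile normalisation and 0 with no filter on low values. They numbered 57 without day 2, 1 without day 4 and 44 without day 6. Estimates that passed no test changed sign without day 4 for Mixl1 (0.25), Lhx1 (0.12) and Evx1 (0.22). That of Eomes changed sign without day 2 (-0.13) and under a common median ratio (-0.004). The drift of the difference with day changed sign under quantile normalisation for Eomes (0.014) and Mesp2 (0.046). Genes that differed from day 2 to day 4 numbered 10, and 0 with no filter, where Mixl1 and Gsc had limma adjusted p-values of 0.198 and 0.175. For that step Eomes passed with quantile normalisation (limma adjusted p = 0.0484) and Evx1 with a pseudocount of 0.1 (limma adjusted p = 0.0357). From day 4 to day 6 no gene passed, and 9 did with quantile normalisation. Eomes was the only gene of the 8 with a peak within 5, 10 or 20 kb (10.4%, 13.1% and 18.3% of all coding genes). With the upper-scoring peaks alone it was again the only one within 10 kb (6.61% of all coding genes). Within 100 kb those peaks lay near 3 of the 8, Mixl1, Eomes and Evx1 (28.5% of all coding genes). The arms were paired by day through the day block of the arm comparison; without that block 3 genes passed, and none of the 8. No pairing by replicate number was possible because each arm and day has 1 library.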
